A study of Mus musculus with 2 samples.

Results

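The genes described here are 10 immediate-early genes of the AP-1 and EGR group: Fos, Fosb, Fosl2, Jun, Junb, Jund, Egr1, Atf3, Ier2 and Ier3. They were read on the probe sets that the platform annotation assigned to exactly 1 of these symbols and to no other gene. This gave 13 probe sets for the 10 genes, out of 34945 single-gene probe sets for 18193 genes. No member appeared on a probe set shared by several genes.

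The cells were bone marrow neutrophils of C57BL/6 mice, an inbred strain, with no treatment or genetic change named. They were stained on ice for the granulocyte antigen Gr-1 and for CD48, which many other blood cells carry, after their Fc receptors had been blocked. Sorting by flow cytometry kept live cells with high Gr-1 and no CD48. This was done in 2 independent experiments, and 200 ng of RNA from each was labelled for 1 array. The labels thus give 1 group of 2 samples, called replicate 1 and replicate 2. The sources used here do not give age, sex or the number of mice per sample. Every difference below is between these experiments, has no replicate check and carries no p-value.

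Immediate-early genes are transcribed within minutes of a stimulus without new protein synthesis, and most of their mRNAs are short-lived. FOS and JUN proteins pair through leucine zippers to form AP-1, a transcription factor that binds the sequence TGAGTCA or TGACTCA, and EGR1 binds GC-rich DNA through zinc fingers. In many cell types these genes are also known to be induced by tissue dissociation and handling, which was not tested here.

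The promoters of 8 of the 10 genes could be matched to RefSeq windows (GRCm38.p6) that run from 250 bases before to 50 bases after the gene's start. Egr1 and Ier2 had no window. The core of the cAMP response element, TGACG, which CREB and ATF proteins bind, was found on either strand in 4 of these 8 genes: Fos, Fosb, Junb and Atf3. It was found in 23.0% of all 27025 genes with a window. These 4 genes had lower signal on replicate 2, where Atf3 was below background. Fosl2, Jund and Ier3 were also lower there on their brightest probe sets and had no such core in their windows. In Fos the core lay 129 and 66 bases before the start, in Fosb 60, in Junb 106 and in Atf3 7. The 4 sequences are shown because they hold the core, and Jun is shown beside them for an AP-1-like site. A link between the core and the direction of signal was not tested. Each line gives the 140 bases before the start, 5′ to 3′ on the gene's strand. Capitals mark the core TGACG, or CGTCA where it is on the other strand, and in Jun the AP-1-like site TGACATCA.
Fos, chr12:85473750-85473889, plus strand: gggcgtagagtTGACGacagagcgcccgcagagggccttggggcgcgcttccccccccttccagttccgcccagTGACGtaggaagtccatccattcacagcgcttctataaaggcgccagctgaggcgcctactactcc
Fosb, chr7:19310046-19310185, minus strand: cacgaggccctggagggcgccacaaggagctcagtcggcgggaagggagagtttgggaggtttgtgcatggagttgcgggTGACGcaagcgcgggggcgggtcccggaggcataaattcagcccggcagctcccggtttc
Junb, chr8:84978749-84978888, minus strand: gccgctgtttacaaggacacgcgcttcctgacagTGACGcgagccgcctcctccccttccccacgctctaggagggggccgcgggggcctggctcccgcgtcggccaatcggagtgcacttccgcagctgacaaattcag
Atf3, chr1:191183334-191183473, minus strand: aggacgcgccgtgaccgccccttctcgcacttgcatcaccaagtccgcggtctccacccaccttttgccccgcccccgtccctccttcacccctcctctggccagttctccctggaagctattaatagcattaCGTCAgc
Jun, chr4:95052223-95052362, minus strand: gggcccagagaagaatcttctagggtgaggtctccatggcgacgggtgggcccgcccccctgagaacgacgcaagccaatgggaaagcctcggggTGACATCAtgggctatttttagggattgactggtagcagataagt

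The site TGACATCA was searched on both strands because of what is known of the Jun promoter, after the other motifs had been run. Of the 8 genes Jun alone had it, against 4.18% of all genes. The SP1 box GGGCGG was in 6 of the 8 genes (all but Junb and Jund) and in 38.2% of all genes. The TATA box TATAAA was in Fos, 33 bases before the start, and in Junb, where it began at base 1 of the annotated transcript, against 15.7% of all genes. The ETS core GGAA was in all 8 genes and in 96.5% of all genes, so it does not set these genes apart. The full element TGACGTCA, the AP-1 sites TGAGTCA and TGACTCA, the EGR site GCGTGGGCG and the CArG box of serum response factor were in none of the 8 windows, and in 2.03%, 5.95%, 0.707% and 1.81% of all genes. Motifs were counted separately, and TGACG lies inside TGACGTCA. A share of all genes counts a gene if any of its windows has the motif. Over windows the share was 35.7% for the SP1 box, 13.6% for the TATA box and 3.62% for TGACATCA. Sites more than 250 bases before the start lay outside the windows and could not be found, and Egr1 and Ier2 were not searched. The absence of a motif therefore holds for these windows only. A match describes letters in the window and was not measured as a binding site here.

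Signals are linear array intensities as the authors deposited them. Background was taken from 87 probe sets of 78 sensory receptor genes (for smell, pheromones and taste). A signal over their 95th percentile counts as above background here. That percentile was 108 on replicate 1 and 131 on replicate 2. By this rule 9 of the 10 genes were above background on both arrays, beside 7353 of 18193 genes overall (40.4%). At the level of probe sets it was 11 of 13, beside 35.5% of all single-gene probe sets, and 9 of these 11 were lower on replicate 2, beside 46.0% overall. Atf3 was above background on replicate 1 alone. In bulk samples, fewer cells with a transcript and less of it per cell cannot be told apart.

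Both arrays had 45101 probe sets, with median signals of 65.5 and 71.6 and equal trimmed means. The ratio of the 3′ to the 5′ control probe set, a sign of RNA quality, was 0.762 and 0.783 for Gapdh and 1.10 and 1.25 for actin on replicates 1 and 2. The sorted cells carried the RNA of neutrophils: all 9 measured defining markers, among them S100a8 (36506 and 64632), Ltf (18878 and 33399) and Camp (26404 and 39049), were above background. Of 73 measured markers of other marrow cells in 10 lists, 19 were above it (26.0%), beside 40.4% of all genes. By the same rule 6 of 40 measured genes typical of other organs were above background on both arrays, so a weak call can be unspecific. The number of arrays limits the precision of every value.

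Among the FOS proteins, which need a JUN partner to bind DNA, Fos had the signals 15164 on replicate 1 and 11501 on replicate 2 (probe set 1423100_at). These lay 141 and 87.5 times above the background threshold of their arrays. Its log2 signal was 13.69 ± 0.28 (SD, n = 2), and replicate 2 was lower by 0.40 on the log2 scale, a 1.32-fold difference. Fosb, whose protein resembles FOS, had signals of 204 and 146 (1422134_at), only 1.89 and 1.11 times the threshold. Its log2 signal was 7.43 ± 0.34 (SD, n = 2) with replicate 2 lower by 0.48. Fosb was no longer above background on replicate 2 when the threshold was the 99th percentile or came from genes of other organs.

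Fosl2 encodes FRA2, a FOS relative without the C-terminal transactivation domain of FOS. Its probe set 1437247_at had signals of 5674 and 3733, a log2 signal of 12.17 ± 0.43 (SD, n = 2), and was 1.52-fold lower on replicate 2. Its other probe set, 1422931_at, had signals of 193 and 273 and was 1.42-fold higher there. The log2 differences of the pair were thus -0.60 and 0.50, a gap of 1.11. Among 2999 genes with at least 2 probe sets above background, the median gap between the brightest pair was 0.24, and 2.20% of genes had a gap as wide as that of Fosl2. The direction of Fosl2 therefore rests on its bright probe set, and the mean over both probe sets differed by only -0.05.

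The products of the JUN genes can pair with each other or with FOS proteins. Jun had signals of 3456 and 3809 on its brighter probe set (1417409_at), a log2 signal of 11.82 ± 0.10 (SD, n = 2), with replicate 2 higher by 0.14. On its other probe set (1448694_at) the signals were 628 and 414, with replicate 2 lower by 0.60. The gap of 0.74 between these differences was matched or exceeded in 7.50% of the 2999 genes, and opposite signs occurred in 30.6% of them. The direction of Jun between the experiments is therefore not settled: the mean over both probe sets put replicate 2 lower by 0.23, and scaling to hybridisation controls put the brighter probe set lower by 0.58, where the median of all genes was lower by 0.65.

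Junb, which can restrain JUN activity and is needed to hold back myeloid proliferation in mice, showed the largest difference of the 10 genes in the deposited scaling. Its signals were 1281 and 529 (1415899_at), with a log2 signal of 9.69 ± 0.90 (SD, n = 2). Replicate 1 was 2.42-fold above replicate 2. The log2 difference of -1.28 was lower than that of all but 0.830% of genes above background. Jund, the JUN gene with the steadiest expression in many cells, had signals of 3800 and 2414 (1449117_at), a log2 signal of 11.56 ± 0.46 (SD, n = 2), and was 1.57-fold lower on replicate 2. Its second probe set (1440265_at) read 105 and 79.5 and was above background on neither array.

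**Figure D1:**
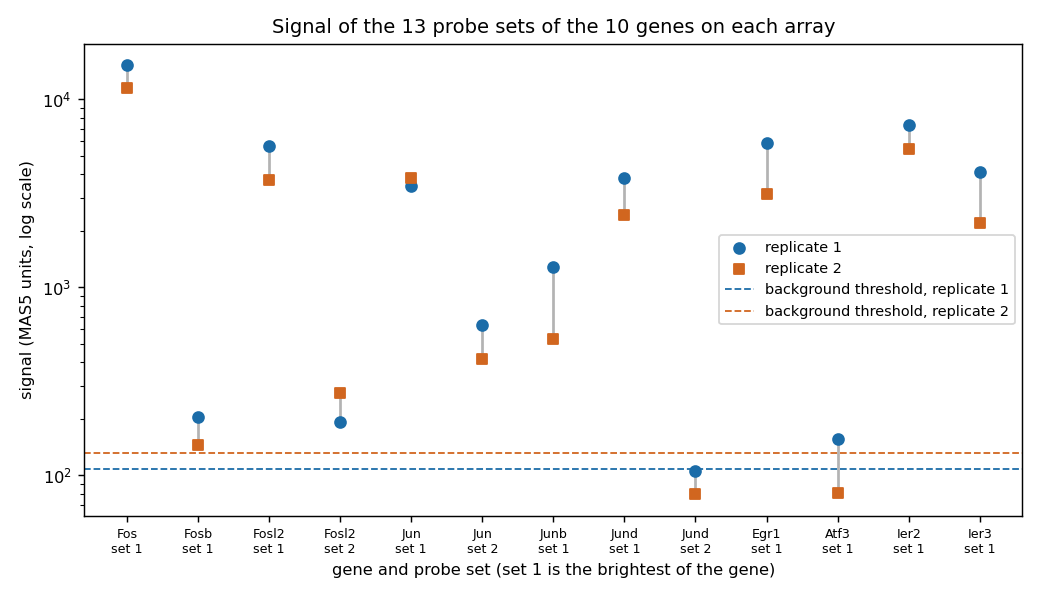
Signal on a log axis for each of the 13 probe sets of the 10 genes, with replicate 1 as circles, replicate 2 as squares and a dashed line for the background threshold of each array (108 and 131). Replicate 2 is lower on 9 of the 11 probe sets above background on both arrays, and higher on the dim probe set of Fosl2 and the bright probe set of Jun; the order of genes along the axis gives no ranking, since probe sets bind with different strengths.

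Egr1, a zinc finger factor of myeloid and many other cells, had signals of 5890 and 3139 (1417065_at). Its log2 signal was 12.07 ± 0.64 (SD, n = 2), and replicate 1 was 1.88-fold higher. Atf3, a stress-induced factor that pairs with JUN proteins and often represses inflammatory genes, had signals of 156 and 80.2 (1449363_at). The first was 1.45 times the threshold and the second below it. Replicate 1 was thus at least 1.19-fold higher against that threshold of replicate 2, and no exact fold is given. The replicate 2 thresholds from genes of other organs (156.2) and the 99th percentile (216) were above the replicate 1 signal of Atf3 (155.99). They gave no such bound.

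Ier2 and Ier3 are immediate-early genes outside both families. Ier2 encodes a nuclear protein, and its signals were 7339 and 5479 (1416442_at), with a log2 signal of 12.63 ± 0.30 (SD, n = 2) and a 1.34-fold higher replicate 1. Ier3 encodes a stress-inducible protein tied to cell survival, and its signals were 4117 and 2204 (1419647_a_at), with a log2 signal of 11.56 ± 0.64 (SD, n = 2) and a 1.87-fold higher replicate 1. The differences of Egr1 (-0.91) and Ier3 (-0.90) were close to each other, with 2.79% and 2.88% of genes lower still. Those of Ier2 (-0.42) and Fos (-0.40) were smaller, with 13.2% and 14.3% of genes lower.

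On the brightest probe sets, 8 of the 9 genes above background on both arrays had a lower signal on replicate 2, beside 43.7% of all genes above background. Jun was the exception. The directions of Jun and Fosl2 rest on that choice of probe set: the log2 difference of the other probe set was -0.60 for Jun and 0.50 for Fosl2. The median log2 difference of the 9 genes was -0.60, with a range of -1.28 to 0.14, beside a median of 0.07 and an SD of 0.50 over the 7353 genes. Junb alone was over 2-fold lower, 1 of 9, beside 1.97% of all genes, and none was over 2-fold higher, beside 3.43%. The difference was wider than the SD over all genes in Fosl2, Jund, Junb, Egr1 and Ier3, and narrower in Fos, Fosb, Ier2 and Jun. The lists and members were chosen with earlier results of these arrays known, so the shared direction is a description of this pair of experiments.

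**Figure D2:**
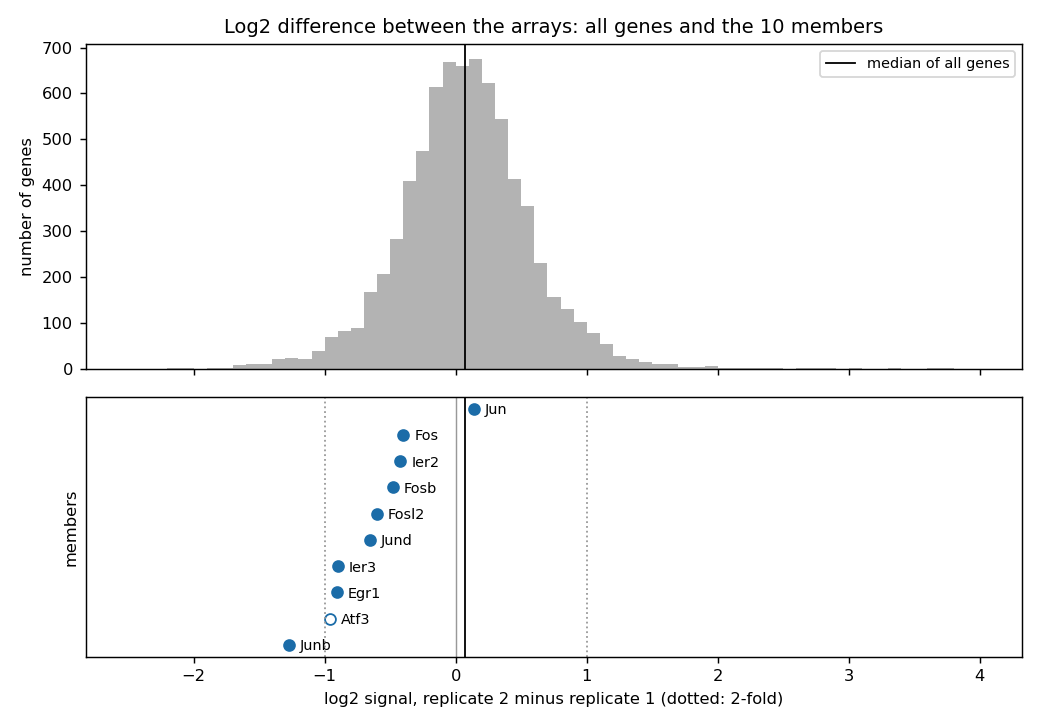
The upper panel is a histogram of the log2 difference (replicate 2 minus replicate 1) over the 7353 genes above background on both arrays, with their median of 0.07 as a line. The lower panel gives each of the 10 genes on its brightest probe set, from Junb at -1.28 to Jun at 0.14, with Atf3 as an open circle because it was below background on replicate 2.

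The size of these differences depended on how the arrays were brought to one scale. Against the 18 hybridisation control probe sets, which are spiked in at fixed amounts, replicate 2 was 0.72 brighter on the log2 scale. Scaling to them made all 9 genes lower, with a median of -1.33, and 8 of them over 2-fold lower, but it also moved the median of all genes to -0.65 and put 21.1% of them over 2-fold lower. Relative to the median of all genes, the 9 genes were lower by 0.68 in the deposited scaling. Median scaling and scaling to the controls shift every gene alike and cannot change this gap, which was 0.63 after quantile normalization and 0.54 with the mean of all probe sets. The genes over 2-fold apart were 145 lower and 252 higher as deposited, 235 and 163 after median scaling, and 1555 and 33 after scaling to the controls.

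**Figure D3:**
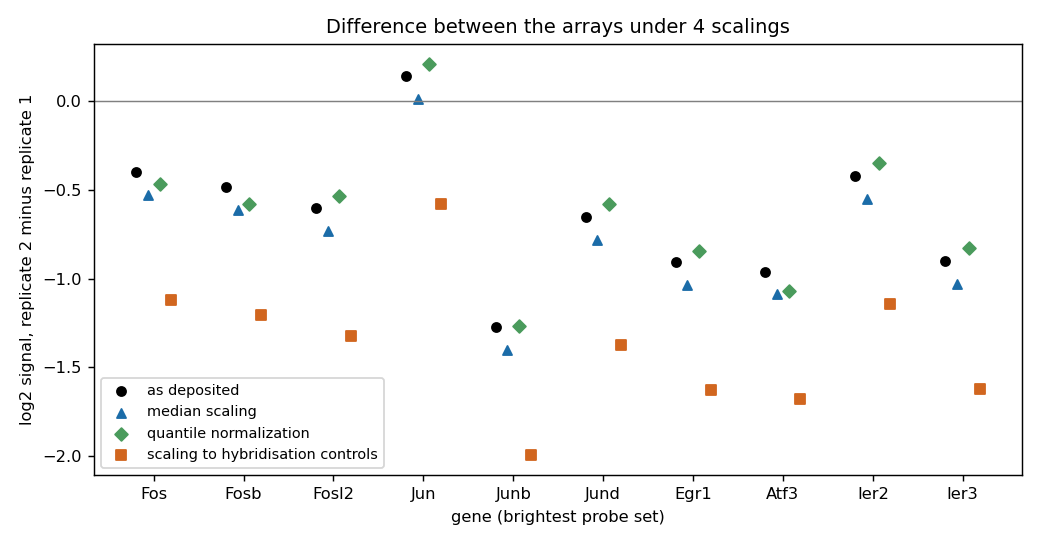
Log2 difference (replicate 2 minus replicate 1) of each of the 10 genes on its brightest probe set under 4 scalings, each with its own symbol. Scaling to hybridisation controls lowers every gene by the same 0.72, and Jun is above 0 under the other 3 scalings.

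The partners and relatives of these genes were described from lists. Of 17 measured genes of other AP-1 and bZIP partners, which encode leucine zipper proteins of the BATF, ATF, MAF and CNC groups, 9 were above background on both arrays, beside 40.4% of all genes. Of these 8 were lower on replicate 2, beside 43.7%. Their median log2 difference was -0.19. None differed over 2-fold, beside 1.97% of all genes above background lower and 3.43% higher. Jdp2, whose product pairs with JUN and represses AP-1 targets, read 1743 and 1528, and Batf, which pairs with JUN proteins in lymphocytes, read 308 and 269. Fosl1, which encodes FRA1, was not above background on either array (12.5 and 88.1). The 1 gene higher on replicate 2 was Nfe2l2 (3593 and 3817), the oxidative stress factor NRF2, named here after its values were seen.

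Egr2 and Egr3, which encode zinc finger factors of the same family, were lower on replicate 2, as Egr1 was. Egr3 had signals of 476 and 181, a log2 difference of -1.39, and Egr2 had 293 and 148, a difference of -0.99. Nab1 and Nab2, named outside the fixed rule, encode co-repressors that bind EGR proteins. Nab1 was above background on both arrays and read 2214 and 2077. Egr4 (41.7 and 127) was not above background on either array, and neither was Nab2 (6.14 and 46.4). Egr2 and Egr3 were near the limit of detection on replicate 2, and neither remained above background with the 99th percentile as threshold.

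Other primary response genes are induced by the same kinds of stimulus. Of 30 measured, 20 were above background on both arrays, beside 40.4% of all genes. Of these 17 were lower on replicate 2, beside 43.7% of all genes above background. Their median log2 difference was -0.53. Over 2-fold lower were 3 of the 20, beside 1.97% of all genes above background. The 3 over 2-fold lower were Ptgs2, the inducible cyclooxygenase (2219 and 960), Socs3, an inhibitor of cytokine signalling (4776 and 2078), and Gadd45a, a stress and DNA damage gene (5601 and 2662). Ier5 read 7151 and 3878, and Nr4a1, an orphan nuclear receptor gene, 580 and 461, while Ier5l was not above background (71.1 and 116). The 3 genes higher on replicate 2 were Klf10, Trib1 and Nfkbia, the last encoding the NF-kB inhibitor, at 10933 and 12925, all named after their values were seen. Dusp1, which encodes a phosphatase that switches off MAP kinases (11609 and 7033), and Zfp36, which encodes a protein that speeds decay of AU-rich mRNAs (8000 and 4990), are named outside the fixed rule. Both were lower on replicate 2.

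The kinases and transcription factors that act upstream were split between both directions. Of 18 measured, 15 were above background on both arrays, beside 40.4% of all genes. Of these 9 were lower and 6 higher on replicate 2, beside 43.7% lower among all genes above background. Their median log2 difference was -0.09. None was over 2-fold apart, beside 1.97% of all genes above background lower and 3.43% higher. Srf, which encodes the serum response factor that binds CArG boxes, read 418 and 454. Of the genes for its ETS partners, Elk1 (94.6 and 88.5) and Elk3 (97.5 and 94.9) were not above background. Elk4, named outside the fixed rule, was above it on both arrays (980 and 1025). Among the genes for turnover of JUN proteins 4 of 5 were above background, beside 40.4%, and 2 of them lower, beside 43.7%. Their median was -0.08. Fbxw7 read 574 and 431, Itch 761 and 821, and Cop1 4616 and 3838, all encoding parts of ubiquitin ligases. The difference between these lists and the immediate-early genes was not tested.

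**Figure D4:**
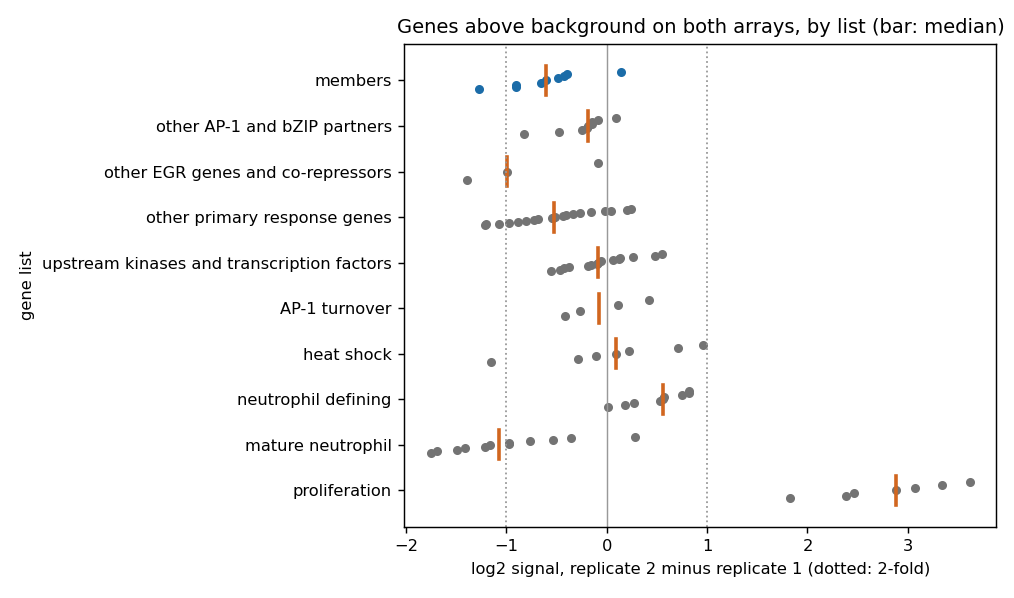
Log2 difference (replicate 2 minus replicate 1) of the genes above background on both arrays in each list, 1 point a gene, with the list's median as a bar. The medians are -0.60 for the 9 immediate-early genes, -0.53 for the other primary response genes, -0.09 for the upstream genes, -1.07 for mature neutrophil genes and 2.89 for proliferation genes.

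The same arrays differed in genes of cell state. The counts here stand beside 40.4% of all genes above background on both arrays, and 43.7% of those lower on replicate 2. Of the proliferation genes, 7 were above background on both arrays. Replicate 2 was higher for each of these 7 (median 2.89), with Mki67, a marker of cycling cells, at 212 and 2149. Over all 9 measured proliferation genes the signals summed to 1285 and 9559. Genes of mature neutrophils were lower in 11 of 12 (median -1.07), with the chemokine receptor gene Cxcr2 at 7212 and 3224 and summed signals of 99452 and 58355. The defining neutrophil genes were higher in 9 of 9 (median 0.56), though Itgam was nearly level (6822 and 6868). Of the 7 measured monocyte markers 4 were above background, with a median difference of -0.16. The signals of all 7 summed to 5941 and 2780. Csf1r, which encodes the receptor for M-CSF (5020 and 1928), carried most of that sum, while Ccr2 (157 and 220) was higher on replicate 2, and F13a1 (264 and 231) and Fn1 (148 and 136) differed little. Of the 8 macrophage markers 3 were above background, and the signals of all 8 summed to 1475 and 870. All 3 were lower on replicate 2 (median -0.65), with Adgre1 at 627 and 217. The neutrophil genes Ly6g and Retnlg and the monocyte gene Ly6c2 were not measured. No defining marker of these lists was listed at 0, which does not by itself show presence. The part of these cell-state genes in the lower immediate-early signal of replicate 2 was not tested.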

How the data were processed

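The authors deposited 1 linear signal intensity per probe set and array, and the submitters' processing notes name MAS5 for it, with no version or setting. Leaving out 2% of probe sets at each end, both arrays had the same mean, so they had been brought to 1 scale before deposit. Names came from the platform annotation in GEO (34958 probe sets with 1 gene, 932 with several, 9211 with none), and 64 control probe sets were left out of the genes.

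Signals were floored at 1 and put on the log2 scale in Python 3.11.15 with pandas 2.3.3. A gene was read on its probe set with the highest mean log2 signal, and was above background when any of its probe sets was on both arrays. With 1 group of 2 arrays no test was possible. The calculation was tested on simulated data. The alternatives were other thresholds, scalings and probe set rules, no filter, and 32 added to the signal. The labels do not say whether the samples came from separate animals.

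The members and lists were chosen with earlier results of these data known. Named are all 10 genes and, of each list, examples from the genes past 2-fold and the first 3 measured, in list order; others are marked, or are markers given beside a result. No gene was named for a like pattern, since 2 arrays give each gene a single difference.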

Additional observations from a re-analysis of the deposited data

How the results depend on the processing

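The count of members above background on both arrays was 9, beside 40.4% of all genes, and 8 with either other background. On 1 array alone it was 9 without replicate 1 and 10 without replicate 2. The share of all genes was not counted for these alternatives, so their counts have nothing to stand beside. The members' median log2 difference ranged from -1.33 to -0.48 over 9 alternatives and stayed below 0 in each. The count of members over 2-fold lower was 1, beside 1.97% of all genes above background. It was 3 with median scaling, beside 3.20%, and 8 with scaling to hybridisation controls, beside 21.1%. That scaling lowered each member and list by 0.72, which follows from its construction. It also put 91.8% of all genes above background lower on replicate 2. The medians became -1.33 for the members, -0.91 for AP-1 partners, -1.71 for EGR genes and co-repressors, -1.25 for primary response genes, -0.81 for upstream genes (15 of 15 lower), -0.80 for AP-1 turnover (4 of 4 lower), -0.63 for heat shock genes (6 of 7 lower, reversed from 0.09), -1.79 for mature neutrophil genes and 2.16 for proliferation genes. Jun became -0.58 there and -0.23 with the mean of all probe sets, reversed from 0.14. The heat shock median was also below 0 with median scaling (-0.0345), with the mean of all probe sets (-0.0167) and with no background filter (-0.0057, 5 of 10 lower). With the 99th percentile as background 1 of 5 heat shock genes was lower, beside 43.8% of all genes above it. Of the EGR genes and co-repressors the co-repressor gene Nab1 alone was left there (1 gene, 1 lower, median -0.0919). With the mean of all probe sets it was again Nab1 alone (1 gene, 1 lower, median -0.44). With no filter the median of EGR genes and co-repressors was -0.0919 over 5 genes. Lower were 14 of 17 AP-1 partners, beside 44.9% of all genes. No paired analysis was possible because the labels give 1 group. With 2 arrays, leaving out either gives no difference. Fosb and Atf3 lie near background, so their differences are the least precise.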

Other observations

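Heat shock genes, which respond to stress through another factor than the immediate-early genes do, gave no common direction. Of 10 measured, 7 were above background on both arrays, beside 40.4% of all genes. Of these 3 were lower and 4 higher on replicate 2, beside 43.7% lower among all genes above background. Their median log2 difference was 0.09. Hspa1b, an inducible HSP70 gene, was 2.23-fold lower on replicate 2 (435 and 195), and the near-identical Hspa1a was above background on replicate 1 alone (127 and 59.8). The constitutive Hspa8 read 5279 and 6176. Probe sets of Hspa1a and Hspa1b can share targets, so the pair is not 2 separate observations.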
